A study of Mus musculus with 23 samples.

Results

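Bex1, Cox6a2, Chchd10 and Met are 4 of the 19938 mouse genes measured on the arrays. They were chosen by their high values on the arrays of 20 h of stearic acid, so the values from the stearic acid and 20 h arrays are given here as a description with no test. Each gene had 1 probe set annotated to it alone: 10606868 for Bex1, 10568369 for Cox6a2, 10364102 for Chchd10 and 10536505 for Met. The working name of late stearic-induced genes describes Bex1, Cox6a2 and Chchd10. Their stearic acid arrays stood above the rest at 20 h and not at 5 h. These arrays chose the genes, so this is no test of the name, and no 20 h vehicle was there to show induction. The name described Met only in part: Met was already higher after 5 h of stearic acid and was highest after lipopolysaccharide.

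Macrophages had been raised from the bone marrow of wild type C57Bl/6 mice. Macrophage colony-stimulating factor (M-CSF, 10 ng/mL) was present for 6 days and was taken away 1 to 3 days before the treatments began. Stearic acid (SA), a saturated fatty acid, was given at 250 µM on bovine serum albumin (BSA) for 5 h (4 arrays) and 20 h (4 arrays), and oleic acid (OA), its monounsaturated counterpart, at the same concentration for 5 h (4 arrays) and 20 h (4 arrays). Lipopolysaccharide (LPS), the bacterial ligand of Toll-like receptor 4, was given at 1 ng/mL (4 arrays). The vehicle was 125 µM BSA with no fatty acid (3 arrays). The sample labels give 5 h for the LPS and BSA cells, and the series description gives 4 h. There was no vehicle at 20 h, so a difference between a 20 h fatty acid group and BSA combines treatment and time. In the labels the samples are replicate wells, whereas the series description speaks of biological replicates. All p-values below therefore rest on the spread among these samples, and that spread may be technical.

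Bex1 encodes a small, largely unstructured adaptor protein of the brain-expressed X-linked family, known for binding the p75 neurotrophin receptor in neurons. Cox6a2 encodes the heart and skeletal muscle form of subunit 6A of cytochrome c oxidase, the enzyme that passes electrons from cytochrome c to oxygen. Most other tissues use the form encoded by Cox6a1. Chchd10 encodes a protein of the mitochondrial intermembrane space with a paired-cysteine (CHCH) fold. Its human counterpart is mutated in motor neuron disease and in a mitochondrial myopathy. Met encodes the receptor tyrosine kinase for hepatocyte growth factor (HGF), which is cut from an inactive precursor by serine proteases. The bound receptor recruits adaptors such as GAB1 and GRB2, and it is removed by ubiquitination or by cleavage at the cell surface.

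Promoter sequence was given for 3 of the 4 genes in the RefSeq table (build GRCm38.p6), and the 250 bases before each start site are shown because the levels of Bex1, Chchd10 and Met did not follow 1 pattern across the groups. The Bex1 window is chrX:136215514-136215763 on the minus strand. That of Chchd10 is chr10:75932880-75933129 on the plus strand, and that of Met is chr6:17463707-17463956 on the plus strand. Each reads 5′ to 3′ along the gene's strand, and capitals mark matches, on either strand, to any of 6 motif spellings other than the GC box.
Bex1: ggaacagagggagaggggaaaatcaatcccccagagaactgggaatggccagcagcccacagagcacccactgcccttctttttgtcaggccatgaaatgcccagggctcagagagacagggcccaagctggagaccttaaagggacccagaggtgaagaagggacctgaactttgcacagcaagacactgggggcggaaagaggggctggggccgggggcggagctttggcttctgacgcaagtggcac
Chchd10: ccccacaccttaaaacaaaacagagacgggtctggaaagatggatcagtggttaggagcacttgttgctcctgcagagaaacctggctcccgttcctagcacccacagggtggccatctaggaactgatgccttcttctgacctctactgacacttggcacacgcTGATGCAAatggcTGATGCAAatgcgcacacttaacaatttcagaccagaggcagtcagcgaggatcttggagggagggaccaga
Met: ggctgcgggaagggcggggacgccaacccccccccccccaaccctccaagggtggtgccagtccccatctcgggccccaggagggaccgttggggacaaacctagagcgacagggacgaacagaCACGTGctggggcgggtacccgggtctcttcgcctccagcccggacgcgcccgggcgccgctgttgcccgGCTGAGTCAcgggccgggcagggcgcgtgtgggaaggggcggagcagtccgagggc

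The motif spellings were picked after the promoters had been read, and each was searched on both strands. TGATGNAA, a spelling of the C/EBP-ATF response element, occurred in Chchd10 as TGATGCAA in 2 copies, which began 85 and 72 bases before the start. Of 32851 mouse promoter windows of this length, 3.452% held that spelling. TGANTCA, the AP-1 site, occurred in Met as TGAGTCA 54 bases before the start, and 6.749% of windows held it. The antioxidant response element spelling TGACNNNGC matched the opposite strand of Met at GCTGAGTCA, 56 bases before the start, and this match overlaps the AP-1 one; 10.16% of windows held it. CACGTG, the E-box, began 126 bases before the Met start, and 6.021% of windows held it. GGGCGG, the GC box, had 2 matches in Bex1 and 3 in Met and was held by 32.74% of windows. The endoplasmic reticulum stress element, CCAAT and CCACG with 9 bases between them, had no match in these 3 windows and was held by 0.1126% of all windows. TGACGTGG, the core of the unfolded protein response element, had none there either and was held by 0.5631%. The G and C content was 59.6% for Bex1, 52.4% for Chchd10 and 74% for Met, against a median of 52.4% over all windows. These matches are letters in a window and do not show that a factor binds there.

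Values are log2 expression per probe set, so a difference of 1 is a 2-fold difference, and levels of different probe sets cannot be set against each other. Bex1 read 7.63, 7.45, 8.11 and 7.53 after 20 h of SA, against 5.37, 6.12, 5.65 and 5.92 after 20 h of OA. At 5 h it read 5.52, 4.53, 5.04 and 5.06 with SA, against 5.54, 5.28, 5.49 and 5.21 with OA. All 4 of the 20 h SA arrays stood above the other 19 arrays, while the 5 h SA and OA arrays overlapped. Bex1 read 4.27, 4.43, 4.66 and 3.77 with LPS, against 4.40, 4.65 and 5.00 with BSA, and these groups overlapped too. The mean was 7.68 ± 0.30 after 20 h of SA and 5.77 ± 0.33 after 20 h of OA (SD, n = 4 each), a difference of 1.91 or 3.77-fold. The 20 h SA mean was 2.65 above the 5 h SA mean of 5.03 ± 0.40, the largest such positive difference of the 19938 genes, and 3.00 above the BSA mean of 4.68 ± 0.30, or 8.00-fold. The level of Bex1 after 20 h of OA was also 1.09 above BSA, the 18th largest such positive difference of the 19938 genes.

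Cox6a2 read 7.24, 7.31, 6.98 and 7.56 after 20 h of SA, against 4.97, 5.43, 5.44 and 5.54 after 20 h of OA. At 5 h it read 5.43, 5.49, 5.34 and 5.30 with SA, against 5.49, 5.48, 5.60 and 5.09 with OA. The 20 h SA arrays again stood above the other 19, and the other fatty acid groups could not be told apart by their ranges. LPS gave 5.89, 6.09, 5.81 and 5.86, against 5.40, 5.54 and 5.45 with BSA, with no overlap between these groups, as for 12.3% of all genes. The mean was 7.27 ± 0.24 after 20 h of SA and 5.35 ± 0.25 after 20 h of OA (SD, n = 4 each), a difference of 1.93 or 3.80-fold. Between 20 h and 5 h of SA the difference was 1.89, the 4th largest positive one of all genes.

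Chchd10 read 7.25, 6.67, 7.45 and 7.31 after 20 h of SA, against 4.97, 5.11, 5.34 and 5.24 after 20 h of OA. At 5 h it read 5.51, 5.29, 5.86 and 5.66 with SA, against 5.33, 5.83, 5.11 and 5.64 with OA. LPS gave 5.26, 5.46, 5.50 and 5.21, against 5.28, 5.10 and 5.35 with BSA. Every 20 h SA array was above the other 19 arrays, and the 5 h SA arrays overlapped those of OA and of LPS. The mean was 7.17 ± 0.34 after 20 h of SA and 5.17 ± 0.16 after 20 h of OA (SD, n = 4 each), a difference of 2.00 or 4.01-fold. The difference between 20 h and 5 h of SA was 1.59.

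Met read 8.02, 7.81, 8.14 and 8.07 after 20 h of SA, against 5.53, 5.30, 5.37 and 5.58 after 20 h of OA. At 5 h it read 7.17, 7.02, 7.32 and 7.30 with SA, against 6.37, 6.54, 6.13 and 6.32 with OA. LPS gave 8.51, 8.56, 8.66 and 8.48, against 6.42, 6.71 and 6.75 with BSA. The LPS arrays were the brightest of the 23, followed by the 20 h SA arrays and the 5 h SA arrays, and the 20 h OA arrays were the dimmest. The mean was 8.01 ± 0.14 after 20 h of SA and 5.45 ± 0.13 after 20 h of OA (SD, n = 4 each), a difference of 2.56 or 5.91-fold and the 6th largest positive one of all genes. After 20 h of OA, Met was 0.89 below its 5 h OA level and 1.18 below BSA, and with no vehicle at 20 h the treatment and the time cannot be told apart here. At 5 h the SA mean was 7.20 ± 0.14 and the OA mean was 6.34 ± 0.17 (SD, n = 4 each), a difference of 0.87.

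**Figure D1:**
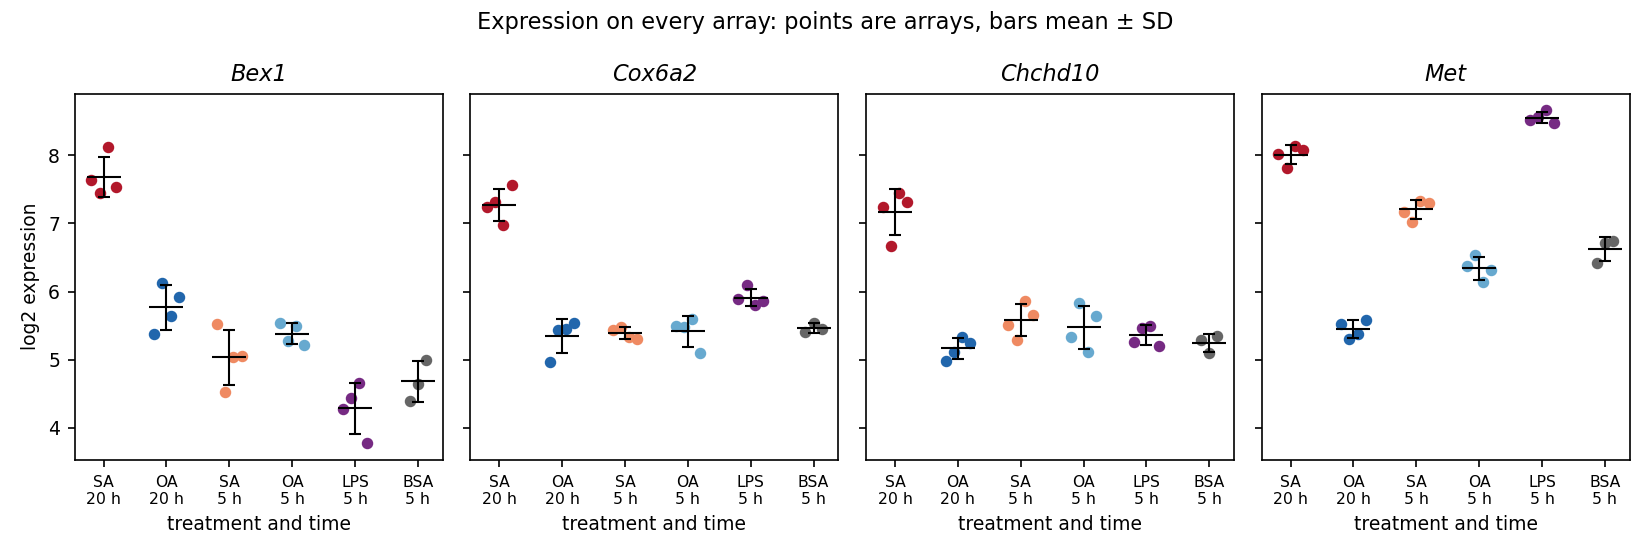
The log2 expression of Bex1, Cox6a2, Chchd10 and Met is plotted for each of the 23 arrays by group, each point being 1 array and each bar a group mean with its SD. Bex1, Cox6a2 and Chchd10 are highest in the 4 arrays of 20 h SA. Met is highest with LPS at 8.48 to 8.66 and lowest after 20 h of OA at 5.30 to 5.58.

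Of these 4 genes, 3 had every 20 h SA array above every other array, as did 2.76% of all genes, and the exception was Met. Since the same arrays chose the genes, nothing is read from this count. For the SA against OA comparison at 20 h, 9.73% of all genes had groups that did not overlap with SA higher, and all 4 genes were among them by choice. The change of the SA minus OA difference between the time points, 20 h minus 5 h, was 2.26 for Bex1, the largest positive one of all genes, 1.96 for Cox6a2, 1.90 for Chchd10 and 1.70 for Met. For Bex1, Cox6a2 and Chchd10 the SA minus OA differences at 5 h were -0.35, -0.03 and 0.10.

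**Figure D2:**
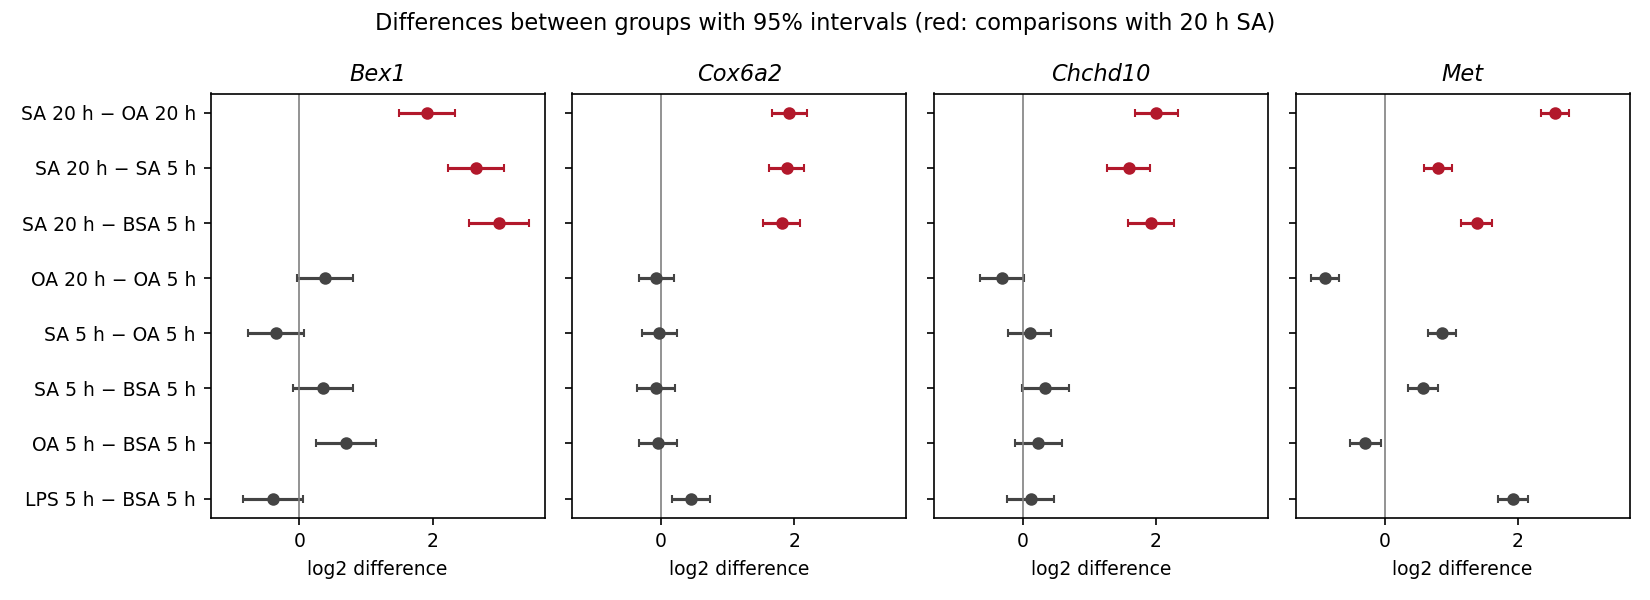
Differences in log2 expression between group means are plotted for the 4 genes, with SA against OA, 20 h against 5 h, and each treatment against BSA on separate lines, a bar for the 95% interval of each difference and red for comparisons with 20 h of SA. For SA against OA, Bex1, Cox6a2 and Chchd10 lie at 1.91 to 2.00 at 20 h and at -0.35 to 0.10 at 5 h, and Met lies at 2.56 at 20 h and 0.87 at 5 h.

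The order of the group means differed between the genes. For Bex1 it ran from SA at 20 h through OA at 20 h (5.77), OA at 5 h (5.38 ± 0.16), SA at 5 h (5.03) and BSA (4.68) to LPS (4.28 ± 0.38), and neighbours other than the first pair overlapped. For Cox6a2 the 20 h SA group was followed by LPS (5.91 ± 0.12) and BSA (5.46 ± 0.07), each separated from the one before, and the remaining groups, at 5.35 to 5.42, overlapped. For Chchd10 only the 20 h SA group was separated, and the other 5 means lay between 5.17 and 5.58. For Met the neighbours in the order were all separated except BSA (6.63 ± 0.18) and OA at 5 h (6.34 ± 0.17). Groups apart in the same direction were found for 11.2% of all genes in 20 h of SA against LPS, 7.64% in 20 h against 5 h of SA, 7.22% in 5 h of SA against BSA and 4.72% in 20 h against 5 h of OA, and 5.84% of all genes had every LPS array above every other array. In SA against OA at 5 h the groups of Met were also apart, as for 5.5% of all genes with SA higher. Met was 0.55 lower after 20 h of SA than with LPS, while Bex1, Cox6a2 and Chchd10 were 3.40, 1.36 and 1.81 higher after 20 h of SA than with LPS.

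Across the 23 arrays, Pearson's r was 0.87 between Cox6a2 and Chchd10, 0.83 between Bex1 and Chchd10, 0.73 between Bex1 and Cox6a2 and 0.02 between Bex1 and Met. The 20 h SA arrays on which the genes were chosen enter these values. With each group's mean taken off, the same values were -0.16, 0.32, 0.09 and 0.34, and the highest was 0.67 for Chchd10 with Met. SA 20 h replicate 2 was the lowest of its group for Bex1, Chchd10 and Met. That array also had the widest scatter of gene deviations from its group, an SD of 0.215 against 0.153 to 0.161 for the other 3, and its part in these correlations was not tested. Without it, the SA minus OA differences at 20 h were 1.99 for Bex1, 1.91 for Cox6a2, 2.17 for Chchd10 and 2.63 for Met.

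LPS against BSA holds no SA or 20 h array. The genes were chosen with earlier results of these data known, so the BSA arrays may have had a part in the choice. Met rose 3.81-fold with LPS, to 8.55 ± 0.08 (SD, n = 4) against 6.63 ± 0.18 (SD, n = 3) with BSA, a log2 difference of 1.93 ± 0.11 (SE; limma adjusted p = 9.37e-13). Cox6a2 rose by less, with 5.91 ± 0.12 in LPS cells against 5.46 ± 0.07 in BSA cells, a log2 difference of 0.44 ± 0.14 (SE; limma adjusted p = 0.0196). The call on Cox6a2 was lost without BSA replicate 1 (limma adjusted p = 0.0730), without BSA replicate 3 (0.0598) or without LPS replicate 2 (0.0657). Bex1 gave -0.40 with a 95% interval of -0.85 to 0.06, and Chchd10 gave 0.12 with an interval of -0.24 to 0.47, and neither was called (limma adjusted p = 0.233 and 0.725). Of all genes, 9.22% were called higher and 13.2% lower with LPS, beside 2 and 0 of these 4.

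OA against BSA at 5 h, which holds no SA or 20 h array, called 0.0702% of all genes, 14 in number, and none of these 4. Since the genes were named late, the 5 h OA arrays may have had a part in the choice. At an unadjusted p under 0.05 the count was 1128 genes, Bex1 and Met among them. Bex1 was 0.70 higher with OA (95% interval 0.25 to 1.15; limma adjusted p = 0.512), and its groups did not overlap, as for 3.52% of all genes. Met gave -0.29, Chchd10 0.23 and Cox6a2 -0.05, with limma adjusted p-values of 0.785, 0.940 and 0.995. SA against BSA at 5 h, which shares the BSA arrays and holds arrays used in the choice, gave 0.58 for Met, 0.35 for Bex1, 0.34 for Chchd10 and -0.08 for Cox6a2.

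The other genes of each family were tested in the same fit, with 7.72% of all genes called higher and 8.95% lower in SA against OA at 20 h. For all lists, rose and fell in SA against OA mean higher or lower with SA than with OA. With no vehicle at 20 h, they do not show which group moved. In the Bex and Tceal family, 1 of 9 measured relatives of Bex1 rose and none fell. It was Tceal9, a transcription elongation factor A-like gene and a neighbour of Bex1 on chromosome X, with 8.80 ± 0.20 after SA against 8.20 ± 0.17 after OA (log2 difference 0.61 ± 0.11 SE, limma adjusted p = 0.000337). The median over the 9 was 0.08, against 0.03 over all genes. Bex2, Bex3, Bex4 and Bex6 differed by 0.04, 0.07, 0.08 and 0.15 and none was called. After SA, the Bex3 probe set read 7.56 ± 0.18 and those of Bex2, Bex4 and Bex6 read 2.58, 1.48 and 2.26. How far the Bex1 probe set reads other Bex transcripts was not tested.

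Among the other subunits of cytochrome c oxidase, 0 of 18 rose and 3 fell in SA against OA at 20 h, and the median was -0.08. Cox7a1, which like Cox6a2 is a heart and skeletal muscle form, fell 2.47-fold, with 5.11 ± 0.22 after SA against 6.41 ± 0.21 after OA (SD, n = 4 each; log2 difference -1.31 ± 0.13 SE, limma adjusted p = 4.80e-08). Cox6b2, the testis form of subunit 6B, fell 1.60-fold (limma adjusted p = 0.00257), and Cox7a2l, a factor in joining respiratory complexes, fell 1.28-fold (limma adjusted p = 0.0251). Cox6a1, the widely used partner form of Cox6a2, gave 11.27 ± 0.07 after SA and 11.20 ± 0.01 after OA, a difference of 0.07 that was not called. The 2 muscle forms went in opposite directions, Cox6a2 higher by description and Cox7a1 lower by test. The count of 3 ran from 2 to 5 over the alternatives.

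In the other mitochondrial lists, 2 of 21 oxidase assembly factors rose and 1 fell at 20 h. Higd1a, a hypoxia-inducible oxidase partner, was 1.26-fold higher with SA than with OA (limma adjusted p = 0.00216). Coa7 rose 1.45-fold (0.0285), and Cmc2, a copper-related assembly factor, fell 1.57-fold (0.00246). Higd1a was at 8.84 after 20 h of SA, 8.78 after 5 h of SA and 8.77 with BSA. Its lowest group mean was that of 20 h of OA, 8.50. Among 14 other CHCH-domain and intermembrane space import genes, 2 rose and 0 fell. Chchd4, the import oxidoreductase that folds paired-cysteine proteins, rose to 6.38 ± 0.22 after SA, against 5.87 ± 0.14 after OA (1.42-fold, limma adjusted p = 0.00365), and Chchd6 rose 1.17-fold (0.0484). That count was 4 without SA 20 h replicate 2 and ran from 1 to 4 over the single arrays left out, moving by over 1.5 times also without OA 20 h replicate 1 or replicate 4. Of 11 cristae genes 0 rose and 2 fell, Samm50 (1.27-fold) and Micos10 (1.24-fold), and the count was 0 without SA 20 h replicate 2. It ran from 0 to 2, and moved as well without any 1 of the 4 OA 20 h arrays or SA 20 h replicate 3.

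Of 10 mitochondrial stress genes, 3 rose and 0 fell in SA against OA at 20 h, and the median was 0.17. Hspa9, the mitochondrial HSP70 chaperone, rose 2.12-fold, with 9.32 ± 0.10 after SA against 8.24 ± 0.04 after OA (limma adjusted p = 1.13e-10). Atf5, a transcription factor of the mitochondrial unfolded protein response, rose 1.86-fold (1.49e-08), and Lonp1, a matrix protease, rose 1.72-fold (0.000295). Without SA 20 h replicate 2 the count was 5. Atf5 and Hspa9 had also risen in SA against OA at 5 h, by 0.52 and 0.40 (limma adjusted p = 0.000199 and 0.0014), where 3.3% of all genes were called higher and 2.37% lower. With LPS, 0 of these 10 rose and 4 fell, or 2 without BSA replicate 2, against 9.22% and 13.2% of all genes. Hspe1 and Hspd1, the mitochondrial chaperonin pair, fell 1.41-fold and 1.35-fold with LPS.

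**Figure D3:**
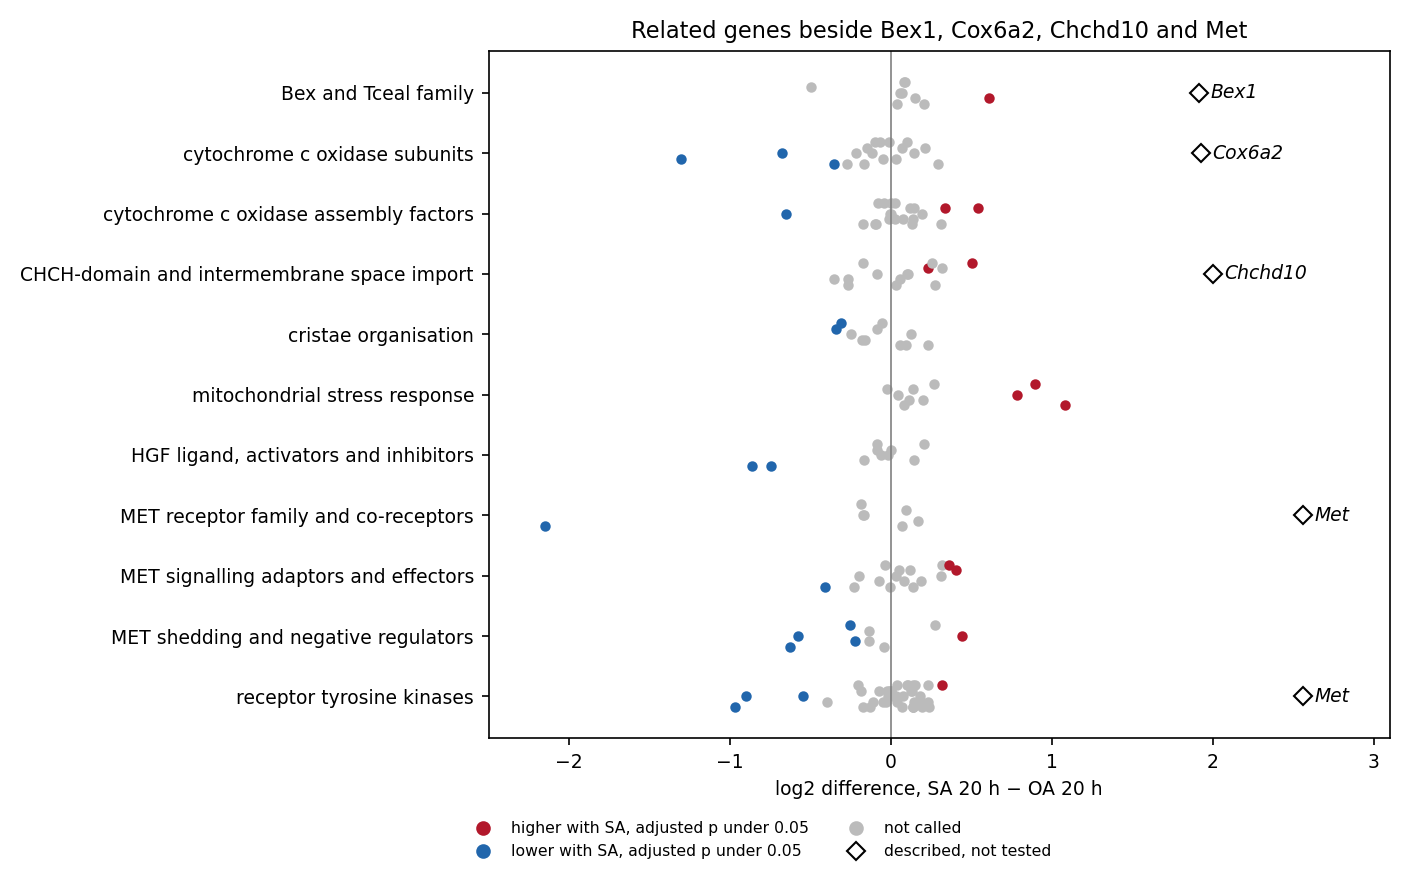
The log2 difference between SA and OA at 20 h is plotted for every measured gene of the related lists, 1 line a list, with called genes in colour and Bex1, Cox6a2, Chchd10 and Met as open diamonds that were not tested. The diamonds lie at 1.91 to 2.56, to the right of every relative, and the lowest point is Itga6 at -2.15.

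On the ligand side of MET, 2 of 10 measured genes fell and none rose in SA against OA at 20 h. Hgf itself fell 1.68-fold, with 5.84 ± 0.17 after SA against 6.59 ± 0.10 after OA (SD, n = 4 each; limma adjusted p = 7.00e-06). It had fallen 1.43-fold with SA against OA at 5 h as well (limma adjusted p = 0.00235). Plau, urokinase, one of the proteases that can activate HGF, fell 1.82-fold at 20 h (limma adjusted p = 1.25e-07). With LPS, Hgf fell to 6.58 ± 0.08 in LPS cells, against 6.94 ± 0.15 in BSA cells (limma adjusted p = 0.0224). The lowest Hgf mean was thus that of 20 h of SA, while after 20 h of OA, where Met was lowest, Hgf was at about its LPS level. Plau fell 2.76-fold with LPS and Plat, tissue plasminogen activator, rose 3.43-fold.

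Among receptors and co-receptors, 0 of 7 rose and 1 fell in SA against OA at 20 h. Itga6, the integrin chain that pairs with integrin beta 4, a MET partner, fell 4.45-fold, with 6.06 ± 0.14 after SA against 8.22 ± 0.08 after OA (limma adjusted p = 4.70e-15). LPS lowered Itga6 2.44-fold and the tetraspanin Cd151 1.73-fold, and raised Cd44, a co-receptor for MET, 1.43-fold (limma adjusted p = 6.46e-11, 1.83e-05 and 3.55e-05). Mst1r, the closest relative of Met, was at 3.13 ± 0.22 after SA and 3.06 ± 0.09 after OA, and it was not called. Of 41 other receptor tyrosine kinases, 1 rose and 3 fell at 20 h. Those lower with SA than with OA were Axl (1.96-fold), Mertk (1.86-fold) and the M-CSF receptor gene Csf1r (1.46-fold), all receptors known in macrophages. Mertk was at 6.42 after 20 h of SA and 7.32 after 20 h of OA, against 6.30 with BSA. In 20 h against 5 h of SA (5.80) Mertk was called higher (limma adjusted p = 0.000974). The gene that rose was Ryk, a receptor for WNT ligands (1.24-fold, limma adjusted p = 0.0421), which is named after its value was seen. With LPS, 5 of the 41 rose and 3 fell, against 9.22% and 13.2% of all genes, and Pdgfrb at 3.43-fold rose most among them.

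Downstream of MET, 2 of 16 adaptor and effector genes rose and 1 fell in SA against OA at 20 h. Pik3ca, a catalytic subunit of phosphoinositide kinase, was 1.32-fold higher with SA, and Rapgef1, an exchange factor bound through CRK, was 1.28-fold higher. Rapgef1 was at 6.20 after 20 h of SA and 5.84 after 20 h of OA, against 6.08 with BSA. In 20 h against 5 h of SA (6.52) Rapgef1 was called lower (limma adjusted p = 0.0395). Inppl1, a lipid phosphatase that binds MET, fell 1.33-fold. Gab1, the main docking protein of MET, was 0.62 higher at 20 h than at 5 h of SA (limma adjusted p = 1.22e-05), where 6.23% of all genes were called higher. With OA, Gab1 was also higher at 20 h (6.38) than at 5 h (5.73). Its mean after 20 h of SA was 6.14, and it was not called in SA against OA at 20 h. With LPS, 7 of the 16 rose and 4 fell, against 9.22% and 13.2% of all genes, led by Src at 3.33-fold and Stat3 at 1.91-fold. Of 9 genes for MET shedding or damping, 1 rose and 4 fell at 20 h. Ptprj, a phosphatase that acts on MET, fell 1.54-fold, Sh3kbp1, which helps internalise the receptor, fell 1.49-fold, and Ptpn1, another such phosphatase, rose 1.36-fold. Adam10 and Adam17, proteases that cleave receptors from the cell surface, fell 1.19-fold and 1.17-fold, and these 2 are named after their values were seen. That count of 5 was 3 without SA 20 h replicate 2, OA 20 h replicate 1 or OA 20 h replicate 2.

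The genes whose pattern over the 23 arrays was most like each of the 4 were taken among 1883 genes whose group means ranged over at least 1 on the log2 scale. For Bex1 they were Gsto1, a glutathione transferase (r = 0.965), Atf6, a stress sensor of the endoplasmic reticulum (0.946), the kinesin gene Kif3a (0.946), Ago2 (0.940) and Cnrip1 (0.927). For Cox6a2 they were Pdia5, a disulfide isomerase (0.948), Sec24d, a vesicle coat gene (0.932), Fkbp11 (0.923), Dnajc3, a co-chaperone (0.923), and Mllt3 (0.916). For Chchd10 they were Edem2 (0.951), Serpinb9b (0.945), the cell cycle inhibitor Cdkn1c (0.936), Creld2 (0.934) and Pdia4 (0.934). For Met they were Rbpms, an RNA-binding protein gene (0.982), the cystine transporter gene Slc7a11 (0.982), Rai14 (0.942), Cd274, which encodes the checkpoint ligand PD-L1 (0.941), and Nupr1 (0.934). None of the 20 genes stood on more than 1 of these lists. The 20 h SA arrays enter both r and the range of group means, so a shared shape follows from the pick. Gsto1 followed Bex1 in being lowest with LPS (6.94, against 7.15 with BSA), and Slc7a11 followed Met in being highest with LPS (9.98, against 7.49 with BSA) and lowest after 20 h of OA (5.42).

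**Figure D4:**
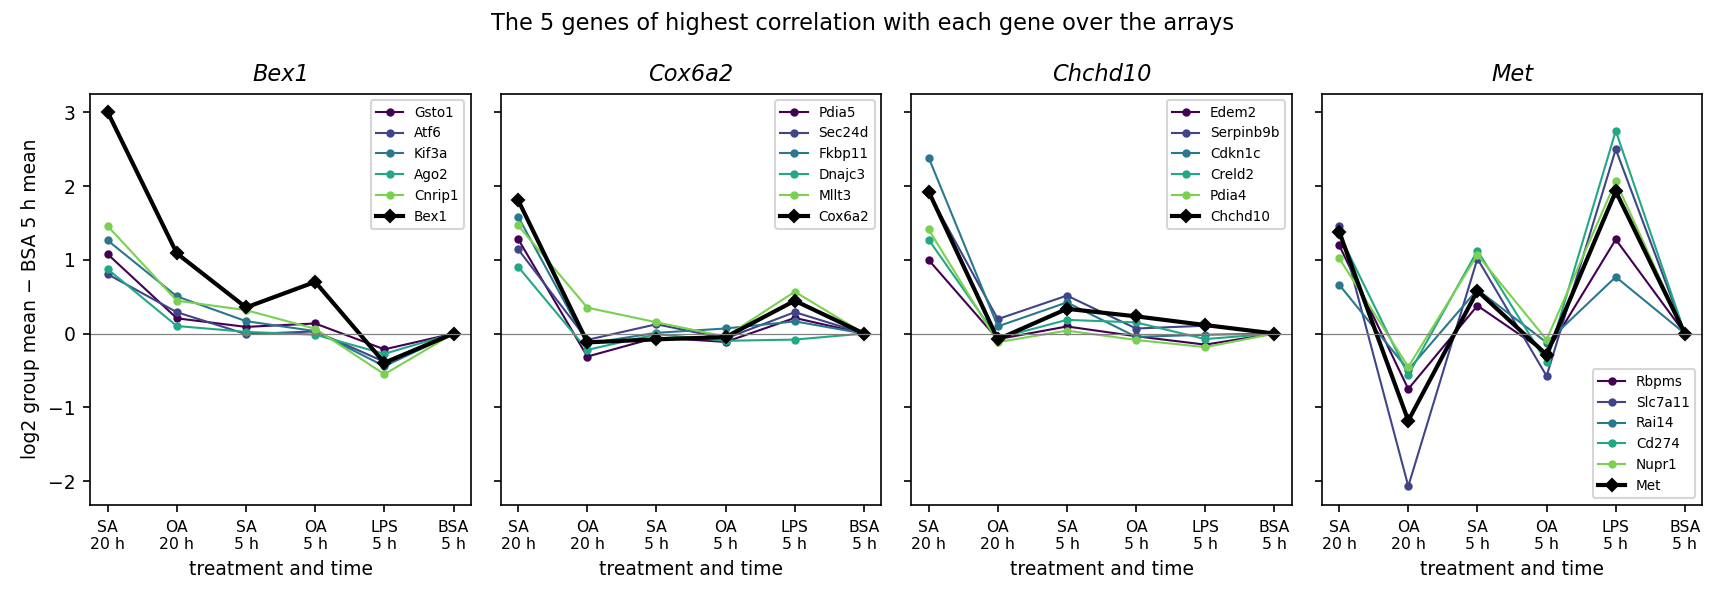
Group means of each of the 4 genes and of the 5 genes most like it are plotted as log2 differences from the BSA mean over the 6 groups, with 1 panel a gene and lines that only guide the eye. In the Met panel the LPS means are the highest for every line and the 20 h OA means the lowest. In the other panels the 20 h SA means stand above the rest. The genes were picked for this likeness over the same arrays.

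The nearest measured genes on each chromosome were read in the same comparisons. Beside Bex1, Tceal9 rose and Tceal8, Tceal5 and Bex3 gave 0.09, 0.21 and 0.07 in SA against OA at 20 h, none called. Next to Cox6a2 on chromosome 7, the integrin gene Itgax fell by 0.66 (limma adjusted p = 8.61e-08), and none of the other 3 neighbours was called. None of the 4 neighbours of Chchd10 on chromosome 10, Smarcb1, Mmp11, Gm867 and Vpreb3, was called. Around Met on chromosome 6, Cav2, Cav1 and Capza2 fell by 0.31, 0.39 and 0.32 (limma adjusted p = 0.00232, 0.0328 and 0.00181), and St7 gave -0.10. With LPS, which raised Met, Cav1, the caveolin gene beside it, rose by 2.40 and St7 by 0.64 (limma adjusted p = 5.50e-13 and 3.54e-05). In 20 h against 5 h of SA, Met was 0.80 higher, while Cav1, St7 and Cav2 gave -1.51, -1.07 and -0.26 (limma adjusted p = 2.60e-09, 8.94e-09 and 0.0148). Capza2 gave -0.21 there and was not called. The means of Cav1, St7 and Cav2 were lower at 20 h than at 5 h of OA too. They were 5.13, 5.49 and 8.41 at 20 h of OA, against 6.35, 6.30 and 8.60 at 5 h. Met was at 5.45 and 6.34 in these OA groups.

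Cox6a2 is known from muscle, Bex1 from neurons and Met from epithelia, so markers of those tissues were read on the same arrays. In SA against OA at 20 h, 1 of 18 striated muscle markers rose (Ckm, 1.26-fold, limma adjusted p = 0.0408, with overlapping groups) and none fell, and that count was 0 without SA 20 h replicate 2. It was also 0 without any 1 of SA 20 h replicates 1 and 3 and OA 20 h replicates 1, 2 and 4. Of 14 neuron markers 0 rose and 1 fell (Map2). That count was 0 without any 1 of OA 20 h replicates 1, 2 and 3 and SA 20 h replicates 3 and 4, and without SA 20 h replicate 2 it was 1 that rose and 0 that fell. Of 10 epithelial markers none was called. Among 10 fibroblast and endothelial markers Vwf rose and Pecam1 fell. The mean level per array after 20 h of SA was 3.40 to 3.52 for the muscle list, against 3.38 to 3.55 after 20 h of OA, and 3.13 to 3.32 for the neuron list, against 3.12 to 3.23. For the epithelial list it was 3.15 to 3.40, against 3.12 to 3.24. The fibroblast and endothelial list gave 3.71 to 3.90, against 3.60 to 3.77. Single markers reached higher levels, such as Vwf at 6.74 ± 0.04 after 20 h of SA, against 5.98 ± 0.08 after 20 h of OA. Within the muscle list the highest group mean was that of Tnni2, 5.83 with BSA. In the neuron and epithelial lists it was that of Uchl1 (6.02) and Krt8 (5.36), both after 20 h of SA. Tnni2, Uchl1 and Krt8 were not called in SA against OA at 20 h. Whether cells of these types were present was not tested.

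The macrophage list moved with the result. In SA against OA at 20 h 9 of the 10 fell and none rose, with a median of -0.85, led by Cx3cr1 (4.39-fold), Fcgr1 (4.36-fold) and Aif1 (4.07-fold). The exception was Cd68, whose highest group mean, 11.48, was that of 20 h of SA. In 20 h against 5 h of SA, 7 of the 10 were called lower and 1, Mertk, was called higher. The list's mean level per array was 8.32 to 8.47 after 20 h of SA, against 9.44 to 9.49 after 20 h of OA. At 5 h it was 9.07 to 9.13 with SA, against 9.50 to 9.53 with OA, and it was 9.34 to 9.47 with LPS, against 9.43 to 9.51 with BSA. In bulk RNA, fewer cells of a type and less RNA per cell cannot be told apart, and the part of this shift in the levels of Bex1, Cox6a2, Chchd10 and Met was not tested. Mertk and Csf1r stand on this list and on that of receptor tyrosine kinases.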

How the data were processed

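The arrays hybridised biotin-labelled product from about 10 ng of RNA, per the labels' protocols. Each array was deposited as log2 expression, 1 value for every probe set, and RMA and limma are named in the submitters' processing notes, with no version and no role given there. The annotation version used by the authors is not given in the sources used here. No value was renormalised. Of 35556 probe sets, 21789 carried 1 gene symbol, 1621 carried several and 12146 were not in the annotation table; for the 999 genes with several probe sets the brightest was kept, giving 19938 genes. All arrays entered 1 limma model (limma 3.58.1, R 4.3.3) with a mean per group, and genes were called at a Benjamini-Hochberg adjusted p under 0.05 over all genes. The number of arrays, 3 or 4 a group, limits the precision. The 4 genes and the lists of related genes and markers were chosen with earlier results of these data known. The text names, for each list and comparison, up to 3 called genes of largest change (not every one is repeated), the close relatives of the 4 genes, the 5 genes most like each and the 2 nearest measured genes on each side. The fit was tested on simulated data. No 2 arrays held the same values. Replicate numbers were not used as pairs in the main model. Alternatives were other moderation, centring, quantile normalization, array weights, a filter on the dimmest 25% of genes, probe set averaging, every probe set, only the groups compared, a replicate block and each array left out. Figures were drawn with matplotlib 3.10.9.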

Additional observations from a re-analysis of the deposited data

Results flagged for a closer look

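A probe set annotated to both Bex4 and Bex1 was used in no comparison. Its level against BSA was 0.49 higher after 20 h of SA, 0.38 higher after 5 h of SA, 0.24 higher with LPS and 0.24 higher after 5 h of OA. After 20 h of OA its mean was 1.93, against 1.81 with BSA, and these groups overlapped. After 20 h of SA its mean was 2.30, and that group overlapped both 20 h of OA and 5 h of SA (2.19). The separation of 20 h of SA seen with the Bex1 probe set was thus not seen with this one. Its values, between 1.75 and 2.62 over the 23 arrays, were low, and how far they exceed background was not tested.

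Of the 33 genes named from the lists for SA against OA at 20 h, 15 had an SA minus OA difference that changed between 5 h and 20 h by limma's interaction term (change given as 20 h minus 5 h). Of all 19938 genes, 4.98% were called by this term. Because the 33 were picked by their difference at 20 h, which is part of the change tested, the pick favours such calls and the count is no evidence about the lists. Aif1 changed by -1.63, Cx3cr1 by -1.11, Fcgr1 by -1.06 and Csf1r by -0.42 (limma adjusted p = 4.98e-07, 6.53e-05, 0.000165 and 0.00864). Itga6 changed by -1.32, Axl by -0.80, Plau by -0.78, Ptprj by -0.75 and Sh3kbp1 by -0.41 (limma adjusted p = 7.07e-08, 0.00315, 0.000275, 1.06e-05 and 0.0323). Among mitochondrial genes Cox7a1 changed by -1.41, Cmc2 by -0.73 and Hspa9 by 0.68 (limma adjusted p = 1.52e-05, 0.0445 and 0.000162). Tceal9 changed by 0.75, Map2 by -0.75 and Vwf by 0.53 (limma adjusted p = 0.00449, 0.0124 and 0.00129). Hgf changed by -0.23 and Atf5 by 0.37, and neither passed (limma adjusted p = 0.544 and 0.0867).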

How the results depend on the processing

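The call on Cox6a2 in LPS against BSA was the 1 gene result among Bex1, Cox6a2, Chchd10 and Met that changed: its log2 difference ran from 0.39 to 0.48 over the arrays left out, and the call was lost for 3 of them, where fewer arrays entered. Met in LPS against BSA stayed called under all 16 alternatives, at 1.80 to 1.99. The count of genes called in OA against BSA at 5 h was 14; it was 29 with trend and robust moderation, 7 with only the groups compared and 7 to 16 with single arrays left out (9 without BSA replicate 2 and 7 without BSA replicate 3). The count in SA against OA at 5 h was 1131, and 660 with only the groups compared; the cause was not tested. The deviations of same-numbered arrays of different groups had a median r of 0.017, against -0.003 for other pairs (55 same-numbered pairs, r from -0.12 to 0.20, 7 above 0.1). Of 23 arrays, 10 were closest to an array of their own number, and whether the numbers mark pairs was not tested. With the replicate number as a block, the Met and Cox6a2 differences in LPS against BSA were 1.91 and 0.44 (limma adjusted p = 3.47e-11 and 0.0255), and the block called 16 genes in OA against BSA. Only 3 or 4 arrays a group limit small differences, and no detection value was used, so how far dim probe sets exceed background was not tested.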
